A study of Mus musculus with 24 samples.

Results

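The change of gene expression over 7 days of thermogenic adipocyte differentiation was examined in ctrl cells, comparing the 3 libraries of RNA_ingSVF_ctrl_day7 with the 3 of RNA_ingSVF_ctrl_day0. Levels are in FPKM, the reads of a gene divided by its length in kilobases and by the library total in units of 1000000 reads, and genes were kept where this value was at least 1 in at least 3 of the 6 libraries. This kept 11821 of the 24825 genes listed. The ctrl cells descend from the stromal vascular fraction of inguinal white fat, which holds precursors of adipocytes among other cells, of Nfia flox/flox mice, and were immortalised with SV40 large T antigen. They carried an empty retroviral vector, so the floxed Nfia gene was left intact in both groups. Day 0 is the culture before induction and day 7 is the culture after it. At confluence the cells received 10% FBS, 0.5 mM isobutylmethylxanthine, 125 nM indomethacin, 1 µM dexamethasone, insulin at 850 nM, thyroid hormone T3 at 1 nM and rosiglitazone at 1 µM for 48 hours, and then 10% FBS with insulin, T3 and rosiglitazone. Rosiglitazone is a direct ligand of PPARγ, and day 0 cells had not received it, so time, serum and agents change together between the groups and cannot be told apart. The sources do not state whether the line is 1 clone, nor that replicates are separate cultures, so p-values measure only the spread between these libraries, which may be technical. The series holds 18 further libraries of 3 other cell types, which are used below for comparison.

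An adipocyte precursor becomes a fat cell through a relay of transcription factors. C/EBPβ and C/EBPδ act early after induction, PPARγ and C/EBPα act later and keep each other on, and together they turn on genes for lipid uptake, triglyceride storage and adipokine secretion. Thermogenic (brown or beige) adipocytes add a large mitochondrial programme and, when stimulated by cyclic AMP, uncoupling protein UCP1. NFIA, a member of the nuclear factor I family of DNA-binding proteins, is the factor the study is about.

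Library totals were 11.28, 12.46 and 13.09 M reads (M, 1000000) at day 0 and 12.28, 10.50 and 14.11 M at day 7. A count of 3 reads, the least taken as expression, corresponds to 0.213 to 0.286 reads per 1000000 over these libraries. Within a gene, the median SD between replicates on the log2(FPKM + 1) scale was 0.12 at day 0 and 0.10 at day 7. The ribosomal RNA precursor Rn45s took the most reads in 5 of the 6 libraries.

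At day 7, 1073 genes had changed at a Benjamini-Hochberg adjusted p under 0.05 (limma) and by at least 3-fold on the log2(FPKM + 1) scale, the rule for a call used below. This is 9.08% of the genes tested. They were 712 genes called higher, 6.02% of the genes tested, and 361 called lower, 3.05%. The adjusted p alone was passed by 8653 genes (73.2%), 3998 of them higher (33.8%) and 4655 lower (39.4%). Most genes thus differed by less than 3-fold but beyond the spread between these libraries, which may be technical. Small changes also depend on the scaling. The median change over the genes tested was -0.057, and 0.017 with median-of-ratios size factors. On the log2(FPKM + 1) scale the larger changes were mostly rises. Changes of at least 10-fold on it were 173 rises and 6 falls, and changes of at least 30-fold were 61 rises and 2 falls. The scale shrinks changes that start or end near 0 FPKM, so these are not counts of plain ratios. By the ratio of mean FPKM, Nos2 fell 298-fold and Map3k7cl 52.8-fold, and neither is among the 2. Both ratios are rough, since the day 7 libraries held 1 to 3 reads of Nos2 and 1 to 8 reads of Map3k7cl. Among the genes tested, 418 reached 1 FPKM in the day 7 libraries alone and 237 in the day 0 libraries alone. Such genes entered the test through the day on which they were high. Among genes at 1 FPKM or more in every one of the 6 libraries, 763 were called, 59.0% of them higher.

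**Figure D1:**
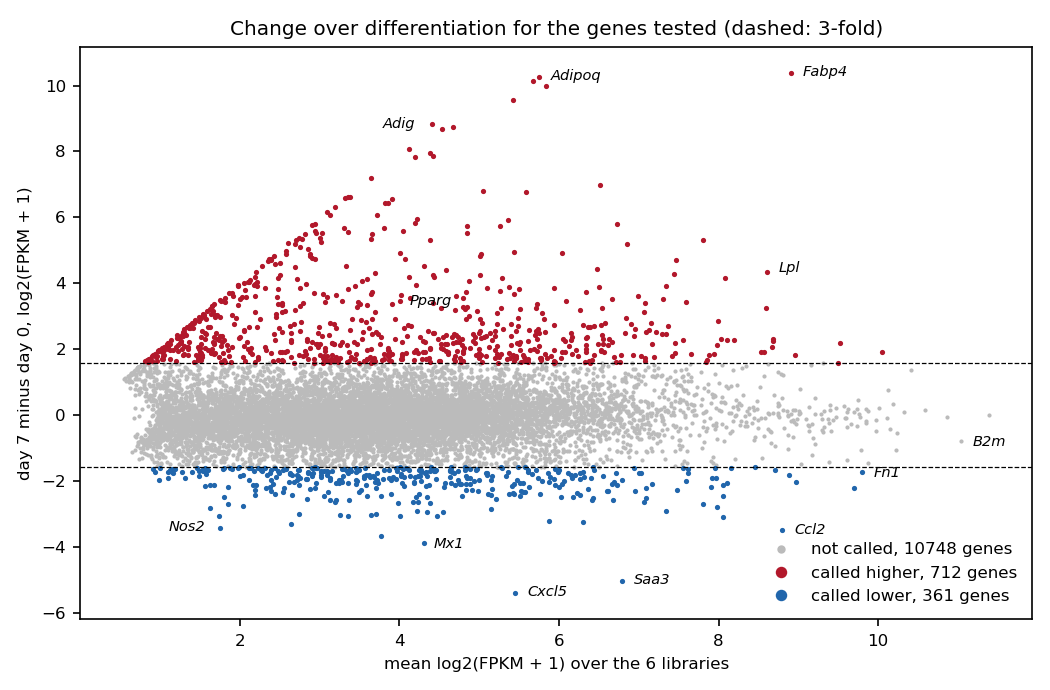
Change from day 0 to day 7 (y axis, log2(FPKM + 1) difference) against mean level over the 6 ctrl libraries (x axis, log2(FPKM + 1)). Each point is 1 of the 11821 genes tested, red for the 712 called higher and blue for the 361 called lower. Rises reach 10.38 (Fabp4) and falls reach -5.40 (Cxcl5), and the straight left edge of red points is made of genes near 0 FPKM at day 0.

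The called genes took up a different share of the library on each day. Genes called higher held 2.19 to 2.27% of reads at day 0 and 17.4 to 19.6% at day 7. Genes called lower held 10.6 to 11.1% at day 0 and 2.42 to 2.88% at day 7. FPKM is a share of a library, and in bulk samples fewer cells of a type and less RNA per cell cannot be told apart. The median change over the genes tested was -0.06.

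The label of an adipocyte culture held at day 7. Of 12 adipocyte markers, 11 were tested and all 11 were called higher, with a median change of 8.07. Their summed level was 28.5 to 33.7 FPKM at day 0 and 22549 to 26701 FPKM at day 7. The exception was Lep, which encodes leptin and was listed at 0 FPKM in each day 0 library and at 0.15, 0.322 and 0.109 FPKM at day 7. Fibroblast and precursor markers summed to 4725 to 5135 FPKM at day 0 and 1641 to 1797 FPKM at day 7, and of 9 tested 3 were called lower and none higher. Dpp4 and Pi16, which mark a precursor population in fat, and Lum did not reach 1 FPKM in 3 libraries and were not tested.

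Markers of blood and endothelial cells were low, and those of mural cells were uneven. Of 12 macrophage markers, 8 stayed below 1 FPKM in all 6 libraries, Adgre1 had no read, and the list summed to 12.7 to 13.3 FPKM at day 0 and 6.41 to 6.94 FPKM at day 7. Of 12 endothelial markers 9 stayed below 1 FPKM, with sums of 7.95 to 10.4 FPKM and 3.59 to 4.24 FPKM. Cdh5, which defines endothelium, was at 0 FPKM in all libraries but the third of day 7, where it was 0.0178 FPKM. Of 10 lymphocyte markers 9 stayed below 1 FPKM and 7 had no read, with sums of 1.39 to 1.6 FPKM and then 0.246 to 0.473 FPKM. Of 12 pericyte and smooth muscle markers 4 stayed below 1 FPKM in all 6 libraries, and Rgs5, Cspg4, Kcnj8, Abcc9 and Myocd were not tested. The list summed to 220 to 255 FPKM and then 285 to 349 FPKM, a sum carried by its other members. Of 7 tested, Mcam alone was called, higher, from 1.87, 1.72 and 1.88 FPKM to 45.0, 48.4 and 45.9 FPKM. Schwann cell and neuronal markers summed to 17.9 to 20.3 FPKM and then 13.2 to 14.8 FPKM, and of 3 tested Ngfr was called higher, reaching 2.71, 3.42 and 3.83 FPKM from under 0.15 FPKM in each library. The part of such cells in the changes below was not tested.

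The fatty acid chaperone Fabp4 had the largest rise on the log2(FPKM + 1) scale. The day 0 libraries held 13.4, 11.7 and 11.4 FPKM and those of day 7 held 15730, 18540 and 18360 FPKM, a change of 10.38 ± 0.30 (SE) with adjusted p = 5.27e-17. It became the most abundant gene of the day 7 libraries per kilobase. The gene lies at chr3:10204347-10208576 on the minus strand of mm9. Adipoq (chr16:23146609-23158101, plus strand), which encodes the hormone adiponectin, started at 0.432, 0.652 and 0.496 FPKM. It reached 1790, 1964 and 1907 FPKM, a change of 10.27 ± 0.31 (SE, adjusted p = 7.65e-17). Cidec, a lipid droplet protein that lets droplets fuse, and Gpd1, which makes glycerol 3-phosphate for triglyceride, followed with changes of 10.15 and 9.99. The remaining genes among the 12 largest rises were G0s2, Adig, Cd36, Plin1, Cfd, Retn, Aldh1a7 and Mrap. Adig had no read at day 0 and reached 398, 521 and 448 FPKM at day 7, at least 1082-fold higher against the level of 3 reads per library. Mrap, an accessory protein of melanocortin receptors, went from 0.358, 0 and 0.308 FPKM to 248, 294 and 291 FPKM.

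**Figure D2:**
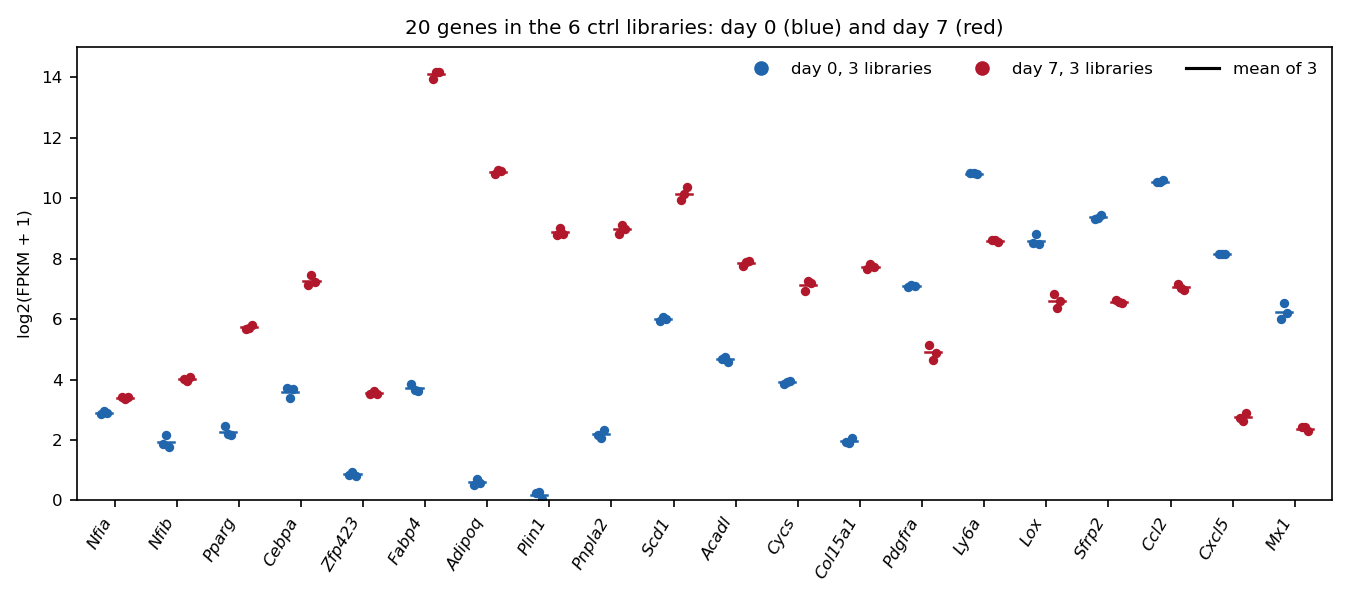
Level of 20 named genes in each of the 6 ctrl libraries (y axis, log2(FPKM + 1)), blue points for day 0, red points for day 7 and bars for the mean of 3 libraries. The days do not overlap for any gene shown. The gap is narrowest for Nfia (6.23 to 6.75 FPKM against 9.15 to 9.81 FPKM) and widest for Fabp4.

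The transcription factors of the relay were described next. Pparg (chr6:115311239-115440419, plus strand) went from 4.54, 3.63 and 3.45 FPKM to 50.1, 51.2 and 54.8 FPKM (change 3.45 ± 0.18 SE, adjusted p = 2.01e-13). Cebpa (chr7:35904312-35906945, plus strand) was at 12.3, 9.40 and 11.9 FPKM and then 138, 175 and 150 FPKM (change 3.67 ± 0.18 SE, adjusted p = 7.14e-14). The groups were far apart for both. The early factors did not follow. Cebpb changed by 0.51 (adjusted p = 0.0264), from 18.9, 11.4 and 17.5 FPKM to 19.4, 28.5 and 21.1 FPKM, and Cebpd fell by 2.04, from 26.3, 20.2 and 29.8 FPKM to 5.23, 6.16 and 4.80 FPKM. Of the 23 adipogenic regulators tested, 7 were called higher and Cebpd alone was called lower, against 6.02% and 3.05% of all genes tested.

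The largest rises among these regulators belonged to factors of lipid synthesis. Nr1h3, which encodes the oxysterol receptor LXRα, went from 1.09, 0.749 and 1.01 FPKM to 70.3, 88.7 and 77.7 FPKM. Mlxipl, which encodes the carbohydrate-responsive factor ChREBP, went from 0.406, 0.216 and 0.309 FPKM to 41.6, 54.5 and 51.2 FPKM. Zfp423, a zinc finger protein of committed precursors, was also called higher (change 2.68 ± 0.10 SE), from 0.799, 0.932 and 0.765 FPKM to 10.4, 11.2 and 10.5 FPKM. Ebf2, a marker of brown and beige precursors, passed the adjusted p with a change of 0.94 and was not called. Klf5 stayed below 1 FPKM in every library and was not tested.

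The 4 nuclear factor I genes did not move together. Nfia (chr4:97439425-97868605, plus strand) went from 6.23, 6.75 and 6.43 FPKM to 9.81, 9.15 and 9.70 FPKM, a change of 0.50 ± 0.07 (SE, adjusted p = 2.77e-06). Nfib rose from 2.69, 3.48 and 2.43 FPKM to 15.3, 14.3 and 15.9 FPKM (change 2.07 ± 0.15 SE, adjusted p = 5.69e-11) and was the only family member called. Nfix went the other way, from 71.4, 66.4 and 76.9 FPKM to 40.5, 39.9 and 36.2 FPKM (change -0.86, adjusted p = 1.70e-10). Nfic, at 54.0 to 67.5 FPKM at day 0 and 59.3 to 64.0 FPKM at day 7, did not pass the test (change -0.01, adjusted p = 0.909), and its sign turned to 0.07 with median-of-ratios size factors. Per kilobase, Nfix and Nfic transcripts stood above those of Nfia and Nfib on both days.

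Most tested genes of lipid storage passed the test upward. Of 15 tested genes of the lipid droplet coat and its assembly, 9 were called higher and none lower, with a median change of 2.36, and 10 passed upward and 3 downward. Plin1, the perilipin of mature adipocytes, went from 0.185, 0.21 and 0.0399 FPKM to 438, 516 and 453 FPKM. G0s2, which inhibits the first lipase of lipolysis, went from 0.526, 0.381 and 0.816 FPKM to 1029, 1370 and 1164 FPKM. Plin3, a perilipin of many tissues, was at a mean of 38.01 FPKM at day 0 and 32.8 FPKM at day 7 and passed downward, as did Faf2 and Hsd17b11. Of 18 genes of triglyceride synthesis 10 were called higher and none lower, 15 passed upward and 3, Lpin2, Lpin3 and Pck2, downward, with a median change of 2.64, or 2.75 with Mogat1, which had no read at day 0, set to its lower bound. Agpat2, which adds the second fatty acid to glycerol, went from 7.66, 5.76 and 8.06 FPKM to 938, 1104 and 1052 FPKM. Gpat3, which adds the first, went from 0.802, 0.781 and 0.319 FPKM to 103, 108 and 109 FPKM.

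Lipolysis had the highest share of called genes among the metabolic lists. Of 16 genes tested, 14 were called higher and none lower, with a median change of 3.36, or 4.27 with Adora1, which had no read at day 0, set to its lower bound. The triglyceride lipase Pnpla2 went from 3.49, 3.22 and 4.08 FPKM to 446, 557 and 505 FPKM. Mgll, the monoglyceride lipase of the last step, went from 0.69, 0.503 and 0.396 FPKM to 121, 138 and 133 FPKM. The β3-adrenergic receptor Adrb3 rose from 0.349, 0.201 and 0.082 FPKM to 49.0, 57.3 and 57.7 FPKM. Adrb1, above 1 FPKM in 1 library, was not tested.

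Fatty acid uptake was uneven across its families. Of 17 genes tested 7 were called higher and none lower, and 5 fell by less than 3-fold. Cd36, a fatty acid translocase, went from 0.181, 0.204 and 0.331 FPKM to 511, 488 and 589 FPKM. Acsl1, the acyl-CoA synthetase of adipocytes, went from 13.8, 13.6 and 12.3 FPKM to 767, 766 and 825 FPKM. Its relatives did not follow, since Acsl4 was at means of 18.6 and 11.8 FPKM and Acsl5 at 24.5 and 23.2 FPKM. Lpl, the lipoprotein lipase, was already at 80.3, 91.5 and 84.7 FPKM at day 0 and reached 1706, 1745 and 1834 FPKM.

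Fatty acid synthesis had 12 of 20 tested genes called higher and none lower, with a median change of 2.23. Scd1, the main stearoyl-CoA desaturase, went from 60.3, 66.7 and 62.7 FPKM to 978, 1132 and 1323 FPKM. Thrsp, a lipogenic regulator, had 1 read over the day 0 libraries and was at 64.95, 91.1 and 88.6 FPKM at day 7. Elovl6 and Fads1, an elongase and a desaturase, fell within the same list, from means of 15.6 to 6.92 FPKM and of 80.5 to 49.95 FPKM. Cholesterol synthesis rose less, with 7 of 22 genes called higher, none lower and a median change of 0.68. Its leading member was Insig1, a sterol sensor of the endoplasmic reticulum, at 38.2, 45.1 and 38.9 FPKM and then 600.3, 628 and 666 FPKM.

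Glucose handling shifted between transporters. Slc2a4, the insulin-responsive transporter GLUT4, went from 0.532, 0.368 and 0.539 FPKM to 33.4, 41.3 and 42.2 FPKM, while Slc2a1, the ubiquitous GLUT1, was at means of 48.7 and 25.1 FPKM (change -0.93, adjusted p passed). Of 20 genes of insulin signalling and glucose transport 9 were called higher and none lower, and 15 passed upward and 4 downward. Tusc5, a partner of GLUT4 vesicles, changed by 5.03. Glycolysis had 2 of 22 genes called higher (9.09%, against 6.02% of all genes tested), Pfkfb1 and Pfkfb3, which make the activator of phosphofructokinase. Its median of 0.16 turned to -0.01 after quantile normalization.

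**Figure D3:**
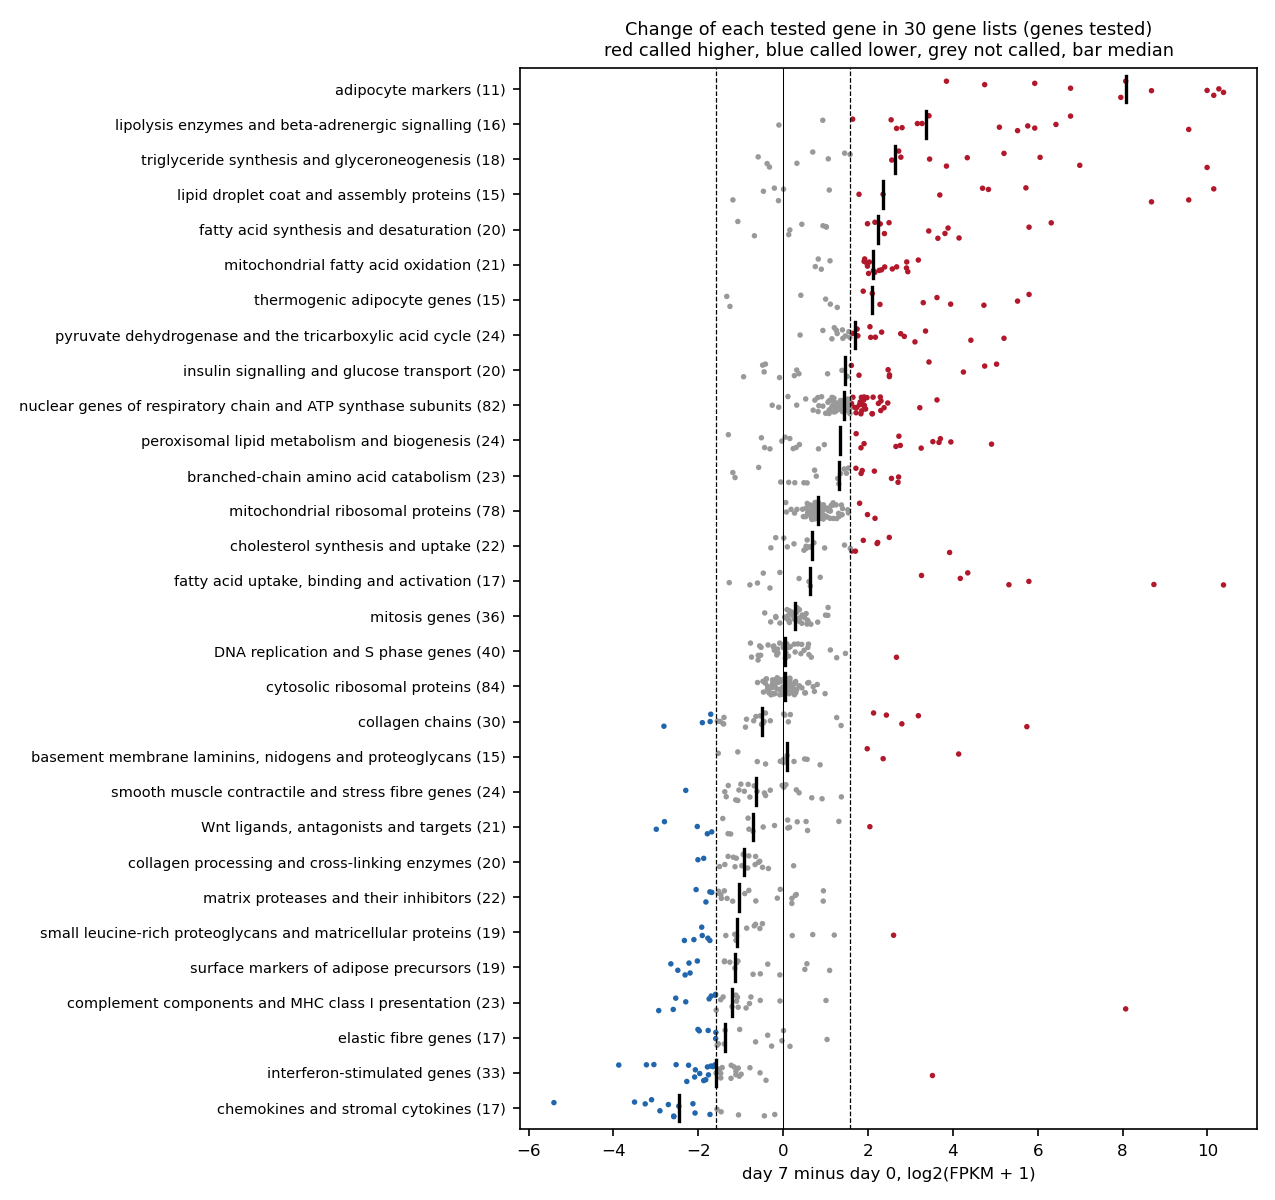
Change from day 0 to day 7 (x axis, log2(FPKM + 1) difference) of each tested gene in a choice of gene lists, with the number of genes tested in parentheses. Red points were called higher, blue points called lower, grey points not called, and black bars are medians. Adipocyte markers (median 8.07) and lipolysis (3.36) lie at the right, ribosomal proteins and DNA replication near 0, and chemokines (-2.46) at the left.

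Most tested genes of the mitochondrial lists passed the test upward. Each of the 24 tested genes of pyruvate dehydrogenase and the tricarboxylic acid cycle passed the adjusted p upward, and 13 were called, with a median change of 1.69. Mpc2, a subunit of the mitochondrial pyruvate carrier, went from 19.5, 16.5 and 19.1 FPKM to 376, 449 and 419 FPKM. Pcx, which makes oxaloacetate from pyruvate, went from 19.4, 15.7 and 19.5 FPKM to 649, 761 and 705 FPKM. Fatty acid oxidation had 17 of 21 genes called higher and 21 of 21 passing the adjusted p upward, with a median change of 2.13. Acadl, the long-chain acyl-CoA dehydrogenase, was at 24.5, 25.8 and 22.9 FPKM and then 213, 236 and 241 FPKM.

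The nuclear genes of the respiratory chain and ATP synthase numbered 82 tested. Of these 28 were called higher (34.1%), none lower, and 79 passed the adjusted p upward, with a median of 1.42. Cycs, which encodes cytochrome c, went from 13.5, 14.2 and 14.3 FPKM to 122, 151 and 145 FPKM. The mitochondrial carrier family was mixed, with 10 of 39 genes called higher, none lower, 23 passing upward, 8 downward and a median of 0.63. The mitochondrial ribosome had 75 of 78 genes passing upward, 3 called higher (3.85%) and a median of 0.83. The cytosolic ribosome had 0 of 84 genes called by limma (1, higher, by voom on recovered reads), 23 passing upward, 19 downward and a median of 0.04 that became -0.18 after quantile normalization. Peroxisomal genes had 12 of 24 called higher, none lower, 17 passing upward and 3 downward, led by Acaa1b, a peroxisomal thiolase, at 1.59, 1.78 and 2.47 FPKM and then 66.2, 97.2 and 103 FPKM.

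Thermogenic genes held called members, members that passed the test without a call and members too low to test. Of 15 tested 9 were called higher and none lower, and 13 passed upward and 2 downward. Elovl3, a brown fat elongase, had 2 reads at day 0, both in 1 library, and was at 48.7, 57.2 and 63.1 FPKM at day 7. Kcnk3, a potassium channel of thermogenic fat, had no read at day 0 and was at 21.9, 28.9 and 26.4 FPKM at day 7, at least 369-fold higher. Cox8b, a cytochrome c oxidase subunit of brown fat and muscle, went from 0, 0.221 and 0 FPKM to 9.87, 14.4 and 12.7 FPKM. Ucp1 (chr8:85814247-85822355, plus strand) was at 0.054, 0 and 0 FPKM and then 0.892, 0.522 and 1.55 FPKM, too low to test. Cidea was at 0.14, 0.0819 and 0.304 FPKM at day 7 and Dio2 had at most 0.0127 FPKM. Ppargc1a, a coactivator of mitochondrial genes, passed the adjusted p at 1.14, 1.49 and 1.70 FPKM from 1 read at day 0, and Ppara, a receptor that controls fatty acid oxidation, was at 2.14, 1.72 and 2.66 FPKM from 0.448, 0.522 and 0.406 FPKM, without a call. Prdm16, a regulator of brown fat identity, was at means of 1.84 and 2.80 FPKM (change 0.42). Tbx15 and Tmem26 passed the test downward, at means of 73.2 and 28.5 FPKM and of 2.19 and 0.33 FPKM.

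The muscle genes that the study follows stood at different levels. Myod1, Myh8 and Gm45923 had no read in the 6 libraries, which allows up to 0.213 to 0.286 reads per 1000000 for counting error only, and Myog was at 0.0479 FPKM in the third day 7 library and 0 in the others. Myl4, a myosin light chain of atrial and embryonic muscle, was at 2.07, 0.801 and 1.65 FPKM and then 1.69, 1.58 and 2.06 FPKM (adjusted p = 0.396). Myl9, a regulatory myosin light chain of smooth muscle and stromal cells, was at 51.2, 41.1 and 54.8 FPKM and then 58.2, 46.1 and 44.5 FPKM (adjusted p = 0.901). The days overlapped for both. Of 16 skeletal muscle markers 3 were tested and Tnnc2, a fast troponin, was called higher at 3.88, 5.92 and 4.92 FPKM from 0.256, 0 and 0 FPKM.

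Secreted adipocyte factors went in both directions. Of 19 tested, 10 were called higher and 3 lower. Retn, which encodes resistin, went from 0.552, 0.25 and 0.178 FPKM to 280, 362 and 344 FPKM, and Cfd, the complement protease adipsin, was at 238, 337 and 287 FPKM at day 7. The 3 that were called lower were the chemokine Ccl2, the cytokine Il6 and the siderophore-binding protein Lcn2, which went from 58.3, 60.9 and 64.0 FPKM to 17.2, 16.8 and 18.4 FPKM.

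Chemokines and stromal cytokines had the lowest median change of the gene lists. Of 17 tested 12 were called lower (70.6%), none higher, and 15 passed the adjusted p downward, with a median of -2.46. The neutrophil chemokine Cxcl5 (chr5:91188325-91190651, plus strand) went from 285, 283 and 284 FPKM to 5.66, 5.12 and 6.504 FPKM, a fall by 5.40 ± 0.13 (SE, adjusted p = 5.96e-18). Ccl2, the monocyte chemokine, was among the 10 most abundant genes at day 0, at 1470, 1469 and 1555 FPKM, and was at 141, 129 and 125 FPKM at day 7. Cxcl1 went from 245, 235 and 247 FPKM to 21.1, 28.0 and 24.9 FPKM. Il6 went from 8.01, 9.92 and 6.96 FPKM to 0.50, 0.585 and 0.186 FPKM. Outside the list, Saa3, an acute phase protein of fat, went from 678, 499 and 753 FPKM to 11.96, 23.9 and 21.2 FPKM, and Nos2, the inducible nitric oxide synthase, from 11.4, 8.18 and 10.8 FPKM to under 0.07 FPKM in each library.

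Interferon-stimulated genes fell almost without exception. Of 33 tested 32 passed the adjusted p downward and 16 were called lower, with a median of -1.58. Mx1 (chr16:97668642-97684514, minus strand), an antiviral GTPase, went from 63.5, 91.8 and 72.8 FPKM to 4.35, 4.36 and 3.88 FPKM, a fall by 3.88 ± 0.15 (SE, adjusted p = 2.01e-15). Ifi44 went from 160, 235 and 149 FPKM to 18.4, 17.4 and 18.8 FPKM. Oas3 (chr5:121203107-121227670, minus strand), a sensor of double-stranded RNA, went from 31.5, 39.5 and 33.9 FPKM to 3.07, 3.66 and 3.29 FPKM. The exception was Ifi27, a small mitochondrial membrane protein, which rose from 53.9, 32.8 and 53.2 FPKM to 474, 585 and 543 FPKM (change 3.52 ± 0.14 SE, adjusted p = 2.56e-15). Of 23 complement and MHC class I genes 8 were called lower and 20 passed downward, while 2 passed upward. The adipsin gene Cfd, a member of this list too, was called higher, at under 0.1 FPKM in each day 0 library and at 238 to 337 FPKM at day 7. Serping1, the C1 inhibitor, went from 63.5, 61.4 and 66.1 FPKM to 7.20, 8.01 and 7.20 FPKM.

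**Figure D4:**
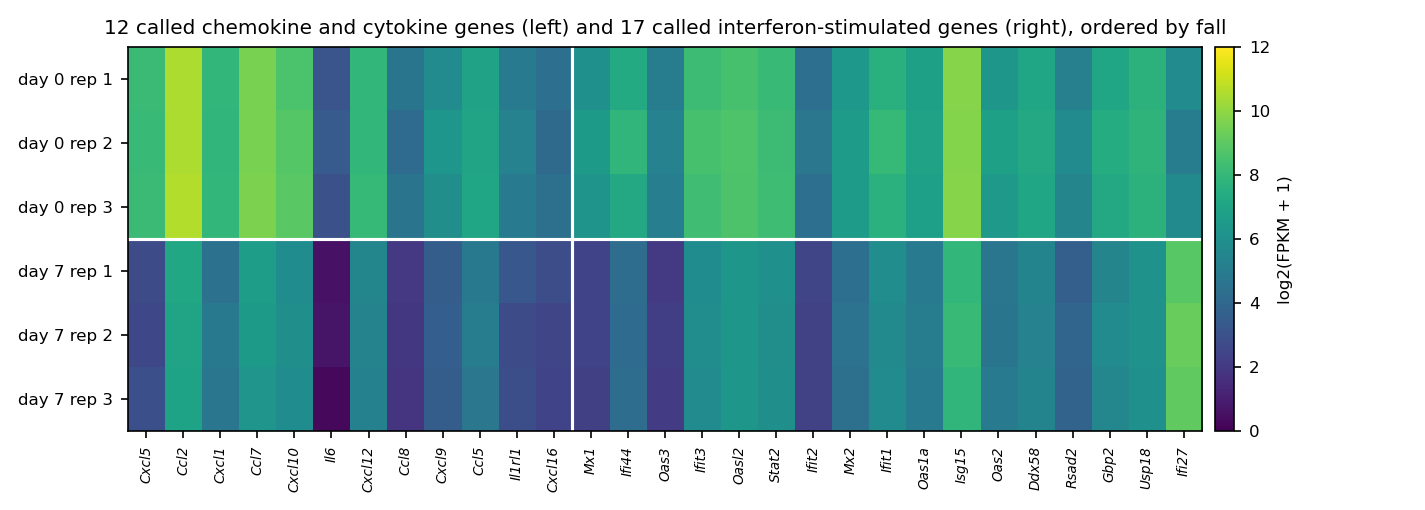
Level of the 12 called chemokine and cytokine genes and the 17 called interferon-stimulated genes (columns, ordered by the size of the fall within each set) in each ctrl library (rows), coloured by log2(FPKM + 1). The 3 day 7 rows are darker than the 3 day 0 rows in every column but that of Ifi27, at the far right, which is brighter (474 to 585 FPKM against 32.8 to 53.9 FPKM).

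Promoters of these falling genes were compared by their letters, since their genes moved together. The letters GAAA, then 2 bases of any kind, then GAAA, which resemble the binding site of interferon regulatory factors, were searched on both strands in the 250 bases before each start of the RefSeq promoters of GRCm38.p6. This motif, like the next, was chosen after the falls were seen. It was held by 2.98% of 32851 promoters in the table, 2.68% of those of tested genes, 13.5% of those of genes called lower and 1.07% of those of genes called higher. Of 30 promoters of the interferon-stimulated genes, from 26 matched genes, 33.3% held it. The letters GGG, then 2 bases of any kind, then TTTCC, which resemble an NF-κB site, were held by 1.41% of all promoters, 1.47% of those of tested genes, 3.16% of those of genes called lower and by 33.3% of 12 promoters of 11 matched chemokine and cytokine genes. A match in these windows is not a bound site. The 250 bases before the start are shown for 4 of the called interferon-stimulated genes that held the first motif, with the match in capitals. Of these, Oas3 matched once and Stat2 once, and Ifit3 and Ifit1 each had 2 matches, and in Ifit3, Stat2 and Ifit1 the matches read as TTTC, 2 bases, TTTC on the strand shown.
Oas3, chr5:120777660-120777909, minus strand: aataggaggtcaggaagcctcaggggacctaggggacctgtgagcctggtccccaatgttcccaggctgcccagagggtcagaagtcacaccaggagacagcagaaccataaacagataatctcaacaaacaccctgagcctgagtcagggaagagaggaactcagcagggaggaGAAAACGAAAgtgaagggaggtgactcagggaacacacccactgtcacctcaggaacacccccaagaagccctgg
Ifit3, chr19:34583279-34583528, plus strand: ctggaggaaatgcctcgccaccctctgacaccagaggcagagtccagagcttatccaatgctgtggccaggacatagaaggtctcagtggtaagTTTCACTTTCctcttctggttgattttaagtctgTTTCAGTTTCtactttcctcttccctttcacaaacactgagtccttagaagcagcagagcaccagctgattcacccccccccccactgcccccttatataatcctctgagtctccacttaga
Stat2, chr10:128270248-128270497, plus strand: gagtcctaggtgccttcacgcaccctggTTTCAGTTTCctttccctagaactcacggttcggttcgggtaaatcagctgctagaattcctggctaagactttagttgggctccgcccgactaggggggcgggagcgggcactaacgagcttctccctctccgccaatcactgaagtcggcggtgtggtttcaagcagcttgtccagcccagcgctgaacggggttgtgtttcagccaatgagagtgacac
Ifit1, chr19:34640639-34640888, plus strand: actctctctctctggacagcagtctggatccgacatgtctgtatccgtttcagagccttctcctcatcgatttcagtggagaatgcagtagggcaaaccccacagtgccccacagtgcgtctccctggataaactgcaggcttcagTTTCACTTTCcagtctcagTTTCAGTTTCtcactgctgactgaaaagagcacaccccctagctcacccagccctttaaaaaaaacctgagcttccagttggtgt

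The first match lay 75 bases before the start in Oas3, 156 in Ifit3, 222 in Stat2 and 104 in Ifit1. Ifit3 went from 298, 363 and 317 FPKM to 55.4, 57.6 and 54.2 FPKM. Stat2, a transcription factor of the type I interferon response, was at 278, 294 and 311 FPKM and then 64.1, 59.98 and 61.9 FPKM. Ifit1 was at 197, 260.3 and 199 FPKM and then 58.2, 51.7 and 54.6 FPKM. Reads shared between close relatives of the Ifit and Oas families were not counted, as 1 alignment was required. For the chemokines, Cxcl1 and Il6 are shown with the second motif, or its reverse complement of GGAAA, 2 bases and CCC, in capitals, first matched 89 and 44 bases before the start.
Cxcl1, chr5:90890995-90891244, plus strand: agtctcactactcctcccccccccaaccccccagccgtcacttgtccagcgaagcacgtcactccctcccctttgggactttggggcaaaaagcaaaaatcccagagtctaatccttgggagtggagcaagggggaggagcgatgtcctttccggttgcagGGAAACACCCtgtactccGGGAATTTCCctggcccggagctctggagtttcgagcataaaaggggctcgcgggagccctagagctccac
Il6, chr5:30012864-30013113, plus strand: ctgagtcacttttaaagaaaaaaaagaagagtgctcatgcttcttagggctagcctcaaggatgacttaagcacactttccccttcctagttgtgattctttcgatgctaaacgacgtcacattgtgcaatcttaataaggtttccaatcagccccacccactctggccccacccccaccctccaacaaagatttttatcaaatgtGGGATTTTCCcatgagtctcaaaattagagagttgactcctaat

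Precursor surface markers fell. Of 19 tested 6 were called lower and none higher, and 15 passed the adjusted p downward, with a median of -1.14. Pdgfra (chr5:75548316-75594229, plus strand), the platelet-derived growth factor receptor of fibroblasts and precursors, was at 134, 138 and 135 FPKM and then 34.6, 24.1 and 28.7 FPKM (fell by 2.19 ± 0.10 SE, adjusted p = 2.19e-14). Ly6a, which encodes the precursor antigen Sca-1, was at 1811, 1820 and 1772 FPKM and then 391, 396 and 370.3 FPKM. It was still well above most genes at day 7. Ly6c1 and Vcam1 fell by 2.65 and 2.48. Thy1 went up within the list, from a mean of 20.9 to 45.8 FPKM, without a call. Among transcription factors of precursors and other mesenchymal fates, 2 of 18 were called lower, Osr1 (52.5, 53.6 and 59.7 FPKM to 12.7, 12.7 and 11.1 FPKM) and Runx1, and none higher.

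Genes of the extracellular matrix moved in both directions. Of 30 collagen genes 5 were called higher and 4 lower, and 19 passed the adjusted p downward against 8 upward. Col15a1 (chr4:47221033-47326039, plus strand), a basement membrane collagen, went from 2.82, 2.78 and 3.23 FPKM to 199, 224 and 208 FPKM. Col4a1, a chain of the basement membrane network, went from 53.3, 51.2 and 53.9 FPKM to 359, 398 and 364 FPKM, and Col5a3 changed by 3.19. The chains of fibrillar collagen I went down by less than 3-fold, Col1a1 from a mean of 1097 to 408 FPKM and Col1a2 from a mean of 880 to 314 FPKM. Col24a1, Col16a1, Col6a5 and Col4a5 were called lower. Collagen processing enzymes had 19 of 20 genes passing downward, with Lox, the cross-linking lysyl oxidase, at 363, 447 and 358 FPKM and then 112, 80.6 and 95.6 FPKM. Elastic fibre genes had 5 of 17 called lower, among them Fbn1, the fibrillin of microfibrils, at 362, 357 and 368 FPKM and then 128, 88.1 and 105 FPKM.

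Of 15 basement membrane laminins, nidogens and proteoglycans 3 were called higher and none lower, 7 passed upward and 4 downward, with a median of 0.09. Of 16 integrin subunits 2 were called higher and none lower, 5 passed upward and 7 downward, with a median of -0.18. Lama4 changed by 2.36, and the integrin chains Itga6 and Itga7 by 4.76 and 3.85, Itga6 from 0.427, 0.574 and 0.33 FPKM to 36.9, 36.5 and 40.4 FPKM. Small leucine-rich and matricellular proteins had 6 of 19 called lower and Prelp alone called higher. Stress fibre and contractile genes had 1 of 24 called lower (4.17%, near the 3.05% of all genes tested). It was Zyx, a focal adhesion protein, at 220, 200.4 and 226 FPKM and then 47.7, 46.1 and 36.3 FPKM.

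Genes of Wnt and of TGF-β signalling passed the test more often downward than upward, and both lists hold antagonists beside ligands and receptors. Over all genes tested 3.05% were called lower and 6.02% higher. Among Wnt genes 5 of 21 were called lower and Fzd4, a receptor, alone was called higher. In this list 12 passed downward and 5 upward, with a median of -0.71. Sfrp2, a secreted Wnt binder, went from 640, 655 and 697 FPKM to 99.3, 93.4 and 91.1 FPKM, and the ligand Wnt16 from 16.7, 16.2 and 21.1 FPKM to 1.86, 1.43 and 0.936 FPKM. Among TGF-β and activin genes 4 of 24 were called lower and 2 higher, and 16 passed downward and 5 upward, with a median of -0.55. Acvr1c, the type I receptor ALK7 of mature fat, had at most 3 reads per library at day 0 and reached 8.73, 8.27 and 8.20 FPKM, and Gdf15 changed by 1.67. Fstl1, an antagonist of this family, went from 998, 1031 and 1015 FPKM to 285, 225 and 239 FPKM.

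No gene of the mitosis and DNA replication lists was called lower at day 7. Over all genes tested 3.05% were called lower, and in lists of this size the absence is near that share. Of 36 mitosis genes none was called by limma or by voom on recovered reads, 22 passed the adjusted p upward and 2 downward, with a median of 0.28. Mki67, the proliferation antigen, was at 23.3, 24.3 and 21.2 FPKM and then 37.2, 31.1 and 35.4 FPKM. Of 40 DNA replication genes 15 passed upward and 12 downward, with a median of 0.05 that became -0.09 after quantile normalization. E2f2 alone was called, higher, from 0.745, 0.802 and 0.596 FPKM to 7.99, 11.1 and 10.95 FPKM. The culture carries SV40 large T antigen in both groups, which binds the retinoblastoma family and p53, so these levels describe this line. In the promoters of the mitosis list, CCAAT was held by 71.9% of 32 promoters against 33.8% of all promoters and 35.8% of those of tested genes, and TTTGAA by 34.4% against 5252 of the 32851 promoters of all genes and 10.4% of those of tested genes. CCAAT is not particular to this list, as 83.3% of 18 cholesterol and 56.4% of 39 DNA replication promoters held it. TTTGAA was held by 17.9% of the DNA replication promoters. The letters TTT, then 2 bases of any kind, then CGC were held by 3.12% of mitosis promoters, 25.6% of DNA replication promoters and 7.16% of those of tested genes.

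Some genes had at least 1 FPKM in every library of a day and at most 3 reads in every library of the other. There were 178 such genes for day 7, 40 of them under 200 bases. For day 0 there were 43, and 36 of these were under 200 bases, a length at which a few reads exceed 1 FPKM. Such short genes can meet this rule without a difference, as did Snord37 at 1.67, 6.06 and 5.77 FPKM and then 1.54, 3.60 and 2.67 FPKM (limma, adjusted p = 0.604). Besides Adig and Cfd, those of day 7 with the highest levels included Car3, a carbonic anhydrase of fat and muscle, at 128, 167 and 157 FPKM, Ppp1r1a, a phosphatase inhibitor, at 82.8, 120 and 108 FPKM, and Lgals12, a galectin of lipid droplets, at 91.0, 96.9 and 103 FPKM. The uncharacterised A530016L24Rik was at 67.3, 75.4 and 71.4 FPKM from no read. Of the longer genes of day 0, Nos2 had the highest level.

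The other cell types of the series were grown and induced in the same way, and the day effect in ctrl was set against theirs. Cre cells express Cre recombinase, which removes an exon of Nfia, Cre_NFIA cells also express FLAG-tagged full-length NFIA, and Cre_deltapro#3 cells express FLAG-tagged NFIA without the C-terminal segment that the study names pro#3. Gene-level Nfia values do not check the deletion: Cre cells were at 6.21 ± 0.77 FPKM (SD, n = 3) at day 0 and 10.1 ± 0.589 FPKM at day 7. The difference of day effects, tested as an interaction in limma, was called for 191 genes against Cre (1.62% of those tested), 37 against Cre_NFIA (0.313%) and 801 against Cre_deltapro#3 (6.78%). Against Cre the day effect was higher in ctrl for 159 genes (1.35%) and lower for 32 (0.271%). Against Cre_NFIA it was higher for 17 (0.144%) and lower for 20 (0.169%), and against Cre_deltapro#3 higher for 560 (4.74%) and lower for 241 (2.04%). With median-of-ratios size factors the share higher in ctrl against Cre_deltapro#3 was 80.5%, not 69.9%, and the median difference over the genes tested was 0.020, not -0.103. The balance also moved with the method. With voom on recovered reads the share higher in ctrl was 56.4% of 351 genes against Cre and 53.9% of 1298 against Cre_deltapro#3, where the shares above are 83.2% and 69.9%. With a pseudocount of 0.1 the shares were 66.4% of 369 and 57.0% of 1250.

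The genes called in ctrl were looked up in the other cell types, whose day comparisons share no library with it. Of the 712 genes called higher in ctrl, 251 (35.3%) were called higher in Cre, which is 88.4% of that comparison's 284. In Cre_NFIA they were 589 (82.7%, and 84.9% of 694), and in Cre_deltapro#3 86 (12.1%, and 61.0% of 141). Their median day effect was 2.31 in ctrl, 1.23 in Cre, 2.31 in Cre_NFIA and 0.47 in Cre_deltapro#3. Of the 361 called lower in ctrl, 54, 245 (67.9%) and 32 (8.86%) were called lower in Cre, Cre_NFIA and Cre_deltapro#3, which is 91.5%, 60.3% and 80.0% of the 59, 406 and 40 genes called lower there. Genes picked by their size in ctrl tend to be smaller elsewhere. The genes tested were also picked by their level in the ctrl libraries alone. Genes expressed only in another cell type were thus left out of its totals, which can raise the shares of those totals. All these shares are therefore descriptions.

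Single genes show the sizes of the differences. Pparg was at 22.4 ± 5.55 FPKM (SD, n = 3) at day 7 in Cre, 59.98 ± 3.34 FPKM in Cre_NFIA and 9.02 ± 2.52 FPKM in Cre_deltapro#3. Its day effect in ctrl was higher by 0.86 than in Cre (adjusted p = 0.00743), by 0.36 than in Cre_NFIA (adjusted p = 0.318, not past the threshold) and by 2.03 than in Cre_deltapro#3 (adjusted p = 5.08e-07). Nfib behaved in a like order, with differences of 1.25, -0.57 and 2.04. Adipoq day effects in ctrl exceeded those in Cre by 2.17 and in Cre_deltapro#3 by 4.42. Of the falling genes, the fall of Pdgfra in ctrl exceeded that in Cre by 1.59 and that in Cre_deltapro#3 by 2.45, where Pdgfra went from 49.97 ± 1.89 FPKM to 59.9 ± 5.98 FPKM. The difference from Cre for Cxcl5 was -0.32 with an SE of 0.179 and did not pass the threshold (adjusted p = 0.15). The difference from Cre_deltapro#3 was -1.10 and passed (adjusted p = 1.89e-05). Cxcl5 fell in each of the 4 cell types. Where day effects missed the threshold the data do not show that they were equal.

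**Figure D5:**
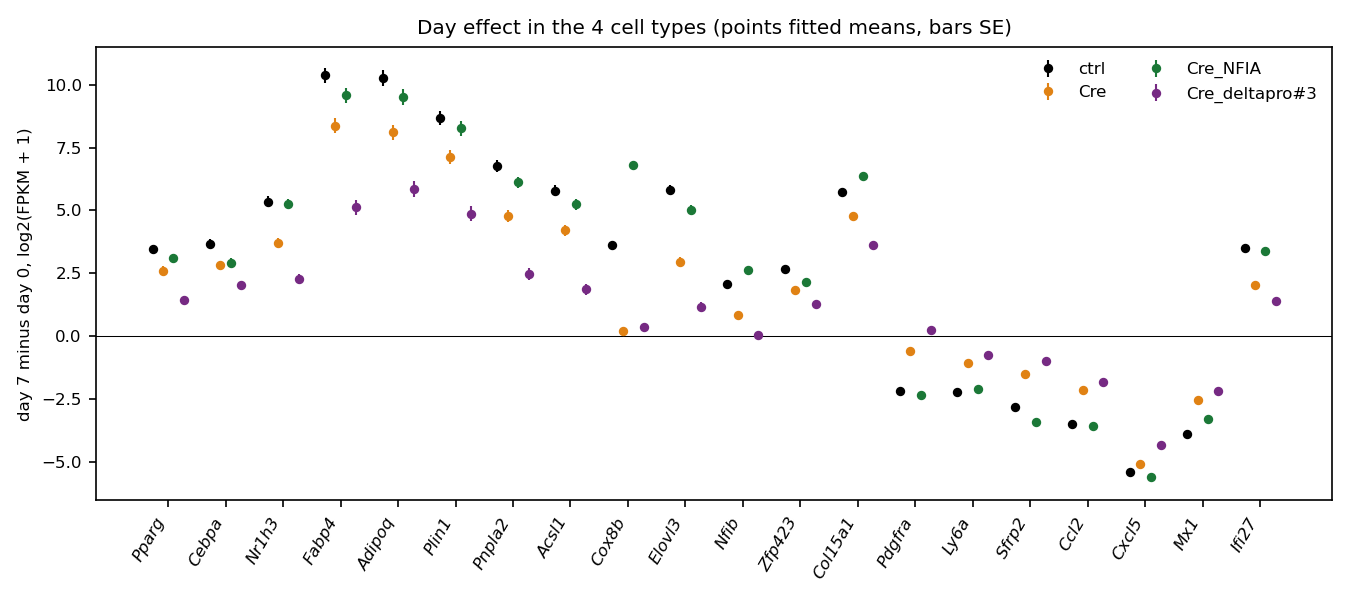
Day effect (y axis, day 7 minus day 0, log2(FPKM + 1)) of 20 genes in the 4 cell types, with points for fitted means over 3 libraries a day and bars for the SE. Cre_deltapro#3 lies nearest to 0 for most genes shown, for example Fabp4 at 5.13 against 10.38 in ctrl, while Cox8b stands out as higher in Cre_NFIA (6.80) than in ctrl (3.63).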

How the data were processed

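RNA-seq libraries were prepared by the authors with TruSeq Stranded mRNA, aligned with STAR 2.5.3a to mm9 with at most 1 alignment per read, counted per gene on the matching strand and deposited as FPKM per gene. The annotation is not given in the sources used here. The 6 ctrl libraries hold 11.28 to 13.09 M and 10.50 to 14.11 M reads. FPKM times gene length gave whole reads (within 0.05 reads) for 100% of values, which gave these totals. Intervals and floors cover counting error only.

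FPKM values were transformed to log2(FPKM + 1), and a linear model was fitted in limma (version 3.58.1, R 4.3.3, empirical Bayes prior following the mean level) to all 24 libraries in 8 groups, so that groups share the estimate of spread (16 residual degrees of freedom). Fold changes on this scale understate changes of low genes. Tests were two-sided with Benjamini-Hochberg adjustment over 11821 genes, and calls needed an adjusted p under 0.05 and at least 3-fold. The fit was tested on simulated data, in which every changed gene moved by the same fold, above the 3-fold limit. Changed genes were drawn from those above a minimum mean level, and all genes were given the same spread. High recovery was nearly built into these settings, so the counts describe large changes of expressed genes only. For the ctrl comparison it recovered 196 of 200 genes changed by simulation with 0 false calls among 11731 genes. For the differences against Cre, Cre_NFIA and Cre_deltapro#3 it recovered 194, 195 and 194 of 200, with 2, 3 and 3 false calls. How recovery depends on the size of a change or on the level of a gene was not tested.

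The comparison, its genes and the 63 gene lists were chosen with earlier results of these data known. List counts are descriptions, read against the share called over all genes tested. Genes were named by a rule: the genes of the study, the 12 largest rises and falls of at least 200 bases, up to 3 called members per list and direction, members called against a list, the 10 most abundant genes per day, the largest differences of day effects, and genes with almost no read on 1 day. Others named in the text were chosen after their values were seen, as were both motifs searched for the falling genes, the 6 promoters shown and the filter on all 6 libraries. Rows whose symbols read as dates are not named, and some list members are not reported here. Positions are mm9 and were matched for 193 of 209 named genes. Promoters are RefSeq, GRCm38.p6.

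Alternatives were another pseudocount, filter, size factor, normalization, replicate block, trend, fold threshold, voom on recovered reads, gene length limit and leaving out each library. Python 3.11.15, numpy 2.4.6, pandas 2.3.3 and matplotlib 3.10.9 were used for tables and plots.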

Additional observations from a re-analysis of the deposited data

Results flagged for a closer look

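Each result here is a difference of the day effect between ctrl and another cell type, tested as an interaction in limma. Such a difference was called for 191 genes against Cre, 37 against Cre_NFIA and 801 against Cre_deltapro#3.

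Against Cre, the day effect in ctrl was higher by 3.89 for Cbr2, a carbonyl reductase, and by 3.42 for Cox8b. Cbr2 was at 45.8 FPKM at day 7 in ctrl, and at 19.1 ± 0.84 and 2.99 ± 0.589 FPKM (SD, n = 3) in Cre. Cox8b was at 0.16 ± 0.139 FPKM at day 7 in Cre. The opposite differences were largest for the short genes Mir763 (-2.88) and Mir5119 (-2.82), of 120 and 57 bases, whose values rest on few reads. In ctrl Mir763 had 2.96, 4.68 and 1.91 FPKM and then 0, 0.794 and 0 FPKM.

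Against Cre_NFIA, Lcn2 differed by 3.28 and Clec3b by 2.52, both from high day 0 levels there (226 ± 12.2 and 72.2 ± 5.6 FPKM). Cox8b differed by -3.18 and Hoxb13 by -3.09, with day 7 levels in Cre_NFIA of 111 ± 4.02 and 30.5 ± 0.462 FPKM against 12.3 and 2.07 FPKM in ctrl.

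Against Cre_deltapro#3, Orm1, an acute phase carrier protein, differed by 5.44 and Fabp4 by 5.25. Orm1 was at 4.12 ± 2.01 FPKM at day 7 there and at 132 FPKM in ctrl. Nov differed by -3.92 and Cpxm1 by -3.24, rising from 4.06 ± 0.0819 to 20.7 ± 1.91 FPKM and from 5.68 ± 0.36 to 30.01 ± 1.46 FPKM there while both went down in ctrl.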

How the results depend on the processing

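With pseudocounts of 0.1 and 5 FPKM the ctrl comparison called 1552 and 557 genes, and the differences against Cre, Cre_NFIA and Cre_deltapro#3 called 369 and 76, 83 and 15, and 1250 and 401. Voom on recovered reads called 1605 genes, and 351, 94 and 1298 for the 3 differences. At 2-fold the counts were 2521, and 1030, 196 and 2304, and with no fold limit 8653, and 6052, 2820 and 7586. Leaving out each library in turn gave 1029 to 1157 calls in the ctrl comparison and 142 to 246, 34 to 44 and 736 to 882 for the differences. All other settings kept each of these totals within 1.5 times its reported value. Counts by direction could move further. With median-of-ratios size factors 90.7% of 227 genes were higher in ctrl against Cre, where the reported share is 83.2%. With the 10 most abundant genes left out, genes called higher held on average 2.39% of reads at day 0 and 15.8% at day 7, and genes called lower 9.67% and 2.35%.

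The replicate block gave 1073 calls, and 192, 37 and 802 for the differences, and changed the call of none of 202 named genes tested. Same-numbered libraries of the 2 days correlated at -0.124, -0.32 and -0.124 in their deviations from the group mean, and the other pairs at -0.138 to 0.237. Deviations within a group of 3 depend on each other, so these correlations cannot decide whether the numbers pair the samples. Over 13 settings the named genes gave 2626 values, of which 2536 kept direction and call, 58 kept direction and lost the call, 44 of these at the pseudocount of 5, and 17 gained it. Signs reversed in 15 values of 6 genes, none of them called. With median-of-ratios size factors Eef1a1 gave 0.019, Nfic 0.071 and Rn45s 0.071, and with quantile normalization Myl9 gave -0.101 and Rpl41 -0.132. Over the 6 ctrl libraries left out in turn, Myl4 ranged from -0.04 to 0.343, Myl9 from -0.102 to 0.10, Nfic from -0.105 to 0.054, Rn45s from -0.251 to 0.131 and Rpl41 from -0.019 to 0.253. The cause was not tested. List medians changed sign in 13 of 819 values, in 8 of 63 lists, all with medians near 0. Each group has 3 libraries, and genes under 1 FPKM, such as Ucp1, are limited by depth.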

Other observations

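Retinoid and steroid genes held members that were called higher. Of 18 retinoid genes tested 5 were called higher and none lower, and 10 passed upward and 5 downward. Aldh1a7, an aldehyde dehydrogenase, went from 0.258, 0.546 and 0.445 FPKM to 313, 323 and 340 FPKM, and Rbp4, the retinol carrier of plasma, from 0.684, 1.11 and 0.884 FPKM to 78.8, 87.9 and 84.8 FPKM. Hsd11b1, which regenerates active glucocorticoid, went from 1.78, 1.83 and 1.53 FPKM to 32.4, 41.2 and 39.8 FPKM, and Ptgs2, the inducible cyclooxygenase, fell by 1.84. Of 15 lipid export genes 4 were called higher and none lower, but 7 passed downward against 6 upward, with a median of -0.07. Apoe, among the 4, was at 17.2, 23.5 and 20.6 FPKM from 1.51, 0.607 and 1.40 FPKM. Of 29 antioxidant genes 8 were called higher and none lower, with 17 passing upward and 10 downward, led by Mgst3 (3.63) and catalase, Cat (3.53).

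Glucocorticoid-responsive and immediate early genes went both ways, with 3 called higher and 3 lower of 27 tested. Zbtb16 changed by 3.00, Pdk4 by 1.90 and Tsc22d3 by 1.79, while Sgk1 fell by 2.28, Fosl2 by 1.75 and Mt2 by 1.68. Homeobox cluster genes had 1 of 25 called, Hoxa4, higher by 1.87, and circadian clock genes 1 of 17, Dbp, higher by 1.62. Of 12 genes of the IGF list 2 were called higher and 1 lower, 6 passed upward and 5 downward, with a median of 0.08. The called genes were Ghr and Igf1 (2.43 and 1.85) and Igfbp3 (-1.66).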
